A study of Homo sapiens with 6 samples.

Results

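The genes described here are 36 members of the NRF2 antioxidant and detoxification programme, taken by gene name from a deposited table of 58735 annotated genes. They cover the regulators of NRF2, the glutathione and thioredoxin systems, carbonyl and quinone reductases, and enzymes and transporters that conjugate and export foreign compounds. Of the 36, 32 had enough counts to be tested among 15726 tested genes, and CBR3, AKR1B10, GSTA1 and UGT1A6 did not. RNA was sequenced from NCI-N87, an established human gastric cancer line, in 6 libraries. In 3 libraries the cells had received the lentiviral expression plasmid PLVX-IRES-Puro-EGLN3, and in 3 control libraries the same plasmid with no insert. EGLN3 encodes a prolyl hydroxylase of the oxygen-sensing family, which tags hypoxia-inducible factors for breakdown. All cells were under puromycin for 7 days. The labels give 1 day with the plasmid before selection, except for EGLN3 replicate 3, where they give 5 days. The labels do not say whether the selected cells were a pool or a clone, or whether replicates were separate cultures, so p-values rest on library-to-library spread that may be only technical.

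NRF2, encoded by NFE2L2, is a transcription factor that is made continuously and destroyed continuously. KEAP1 presents it to a ubiquitin ligase, and oxidants or electrophiles that modify KEAP1 let NRF2 escape, enter the nucleus, pair with a small Maf protein and bind antioxidant response elements. In the gastrointestinal epithelium its targets supply glutathione, reduce peroxides and quinones, and clear reactive compounds taken in with food. Because NRF2 is set mainly by protein stability, transcripts of its targets are a common readout of its activity.

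EGLN3 measured 481.4, 1640 and 1717 CPM in EGLN3 replicates 1 to 3, against 0.582, 0.702 and 0.565 CPM in control replicates 1 to 3 (edgeR, adjusted p = 0.031). CPM are counts relative to library size after TMM scaling, a correction for composition. Library totals ran from 15157265 to 16767383 counts. The libraries differed along a first principal component with 70% of the variance, which the plasmid does not define: it placed EGLN3 replicates 1 to 3 at 59.4, -23.3 and -45.9, and control replicates 1 to 3 at -36.2, 11.5 and 34.4. EGLN3 replicate 1 therefore stood at the opposite end from the other EGLN3 libraries. All 8 epithelial and NCI-N87 markers examined were measured, including KRT8 and EPCAM. Fibroblast markers summed to 3.89 to 4.62 CPM with EGLN3 and 4.77 to 5.52 CPM in controls, with COL1A2 and LUM at 0; these sums did not overlap, and COL1A1 was the tested marker among them. Leukocyte markers summed to 5.69 to 6.49 CPM with EGLN3 and 5.36 to 7.04 CPM in controls, with MS4A1 at 0, and endothelial markers to 0.474 to 0.874 CPM with EGLN3 and 0.816 to 1.22 CPM in controls. VWF, the tested endothelial marker, was also below all controls in every EGLN3 library, at 0.594, 0.474 and 0.749 CPM with EGLN3 and 1.16, 0.894 and 0.753 CPM in controls. The part of these levels in the results was not tested. In bulk RNA, fewer cells expressing a gene and less RNA per cell cannot be told apart.

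With EGLN3, a small set of NRF2-responsive genes stood higher in every EGLN3 library than in any control library: the pseudogene NMRAL2P, the malic enzyme ME1, the glutathione synthesis subunit GCLM and the TRIM16 relative TRIM16L. They were 12.5% of the 32 tested members, and 0 members stood lower in this way. Among all tested genes 2.64% stood higher and 3.62% lower in this way. The best known target, NQO1, and the regulators NFE2L2 and KEAP1 had overlapping groups. In edgeR's quasi-likelihood test no member passed an adjusted p of 0.05. Of the members, 2 had an unadjusted p under 0.05, against 1.11% of all tested genes, and DESeq2 and limma-voom also called 0 members. Over all 15726 tested genes this test called 0.00636%, which was EGLN3 alone, and 174 genes had an unadjusted p under 0.05. In a second fit, called the corrected fit, 1 surrogate variable stands for the first component, and smooth dependence on GC content and on length is removed library by library. There 4 members rose, NMRAL2P, TRIM16L, ME1 and GPX2, and 0 fell, against 0.318% of all tested genes called higher and 0.674% called lower, or 0.992% in either direction. With the surrogate variable alone 7 members were called higher and 1 lower, against 1.1% and 3.66% of all tested genes, 4.76% in all. That fit added GCLM, SLC7A11 and TXNRD1 above, and ABCC3 below (edgeR, adjusted p = 0.0074, 0.023, 0.02 and 0.0059). The fits take these estimated terms as fixed, although they come from the very counts tested, so their adjusted p-values may be too small.

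The median log2 fold change of the 32 tested members was 0.09 in the uncorrected fit and 0.07 in the corrected fit, against 0.01 and -0.004 over all tested genes. Of the 32, 20 lay above 0 and 12 below, which is 62.5% above 0 against 52.2% of all tested genes. In the corrected fit 21 lay above 0, or 65.6%, against 48.7% of all. The uncorrected median rested on EGLN3 replicate 1: without that library it was -0.011, and it was 0.011 without control replicate 1. Set against each gene's own mean, the members' median was 0.23, -0.02 and 0.00 in log2 CPM in EGLN3 replicates 1 to 3, against -0.18, 0.02 and -0.01 in control replicates 1 to 3. The groups overlapped, with EGLN3 replicate 1 the highest library and control replicate 1 the lowest.

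**Figure D1:**
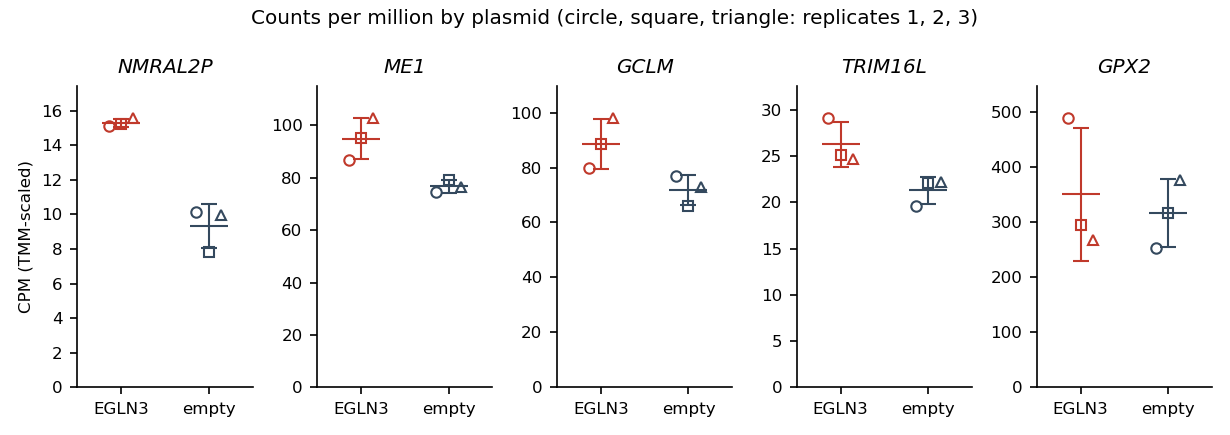
CPM of NMRAL2P, ME1, GCLM, TRIM16L and GPX2 in EGLN3 libraries (left) and empty plasmid libraries (right); symbols are libraries, and bars are the mean and SD of 3. The groups are apart for the 4 genes on the left, from 15.1 to 15.5 CPM with EGLN3 against 7.85 to 10.1 CPM in controls for NMRAL2P, and overlap for GPX2.

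NMRAL2P showed the largest difference of the members. It is a transcribed pseudogene whose RNA is known to be induced by NRF2 in human cells (ENSG00000171658, plus strand of chromosome 3, 185959943 to 185980872 in GRCh38). It measured 15.1, 15.2 and 15.5 CPM in EGLN3 replicates 1 to 3, against 10.1, 7.85 and 9.98 CPM in control replicates 1 to 3. All 3 EGLN3 libraries lay close together and above all controls. The means were 15.3 ± 0.228 CPM with EGLN3 and 9.32 ± 1.27 CPM in controls (SD, n = 3 each), a fitted fold of 1.64. The log2 fold change of NMRAL2P in edgeR was 0.71 with an SE of 0.15 (unadjusted p = 0.0024, adjusted p = 1). NMRAL2P rose by 60.7% in the corrected fit (0.68 in log2, SE 0.11; edgeR, adjusted p = 0.0014). When each library was left out of that fit in turn the call held in 5 of 6, with an adjusted p of 0.0023 to 0.078, and was lost without EGLN3 replicate 1. The difference did not follow the first component, since EGLN3 replicate 1 and EGLN3 replicate 3, its extremes, differed by -0.04 in log2 CPM. NMRAL1, the protein-coding gene it resembles, was read after these values had been seen. It had a log2 fold change of -0.03 (SE 0.31) in the uncorrected fit and 0.10 (SE 0.06) in the corrected fit. The sharing of reads between them by the counting is not known, so the division is uncertain.

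ME1, the cytosolic malic enzyme, makes NADPH (ENSG00000065833, minus strand of chromosome 6, 83210389 to 83431071). It measured 86.9, 95.4 and 102.7 CPM in EGLN3 replicates 1 to 3, against 74.4, 79.3 and 76.5 CPM in control replicates 1 to 3. The lowest EGLN3 library was above the highest control. ME1 averaged 95.0 ± 7.93 CPM with EGLN3 and 76.7 ± 2.45 CPM in controls (SD, n = 3 each), with a log2 fold change of 0.31 (SE 0.12; edgeR, unadjusted p = 0.043, adjusted p = 1). ME1 rose by 16.3% in the corrected fit (0.22 in log2, SE 0.05; edgeR, adjusted p = 0.042). TRIM16L, a shorter relative of the ubiquitin ligase gene TRIM16 (ENSG00000108448, plus strand of chromosome 17, 18697998 to 18736118), measured 29.1, 25.1 and 24.7 CPM with EGLN3, against 19.6, 22.1 and 22.2 CPM in controls. Its groups were also apart, with a log2 fold change of 0.30 (SE 0.13; edgeR, unadjusted p = 0.06). TRIM16L rose by 25.5% in the corrected fit (0.33 in log2, SE 0.08; edgeR, adjusted p = 0.034). TRIM16 itself had a log2 fold change of 0.01 (SE 0.32) in the uncorrected fit and 0.03 (SE 0.05) in the corrected fit, and reads of these near relatives may be divided wrongly. The corrected calls of ME1 and TRIM16L, and that of GPX2 given further on, each held in 1 of 6 fits that left out a library, the fit without control replicate 2. They were lost without each EGLN3 library and without control replicates 1 and 3, with an adjusted p of up to 0.37 for ME1, 0.32 for TRIM16L and 0.51 for GPX2. TXNRD1 and PRDX1 passed without control replicate 2 (adjusted p = 0.017 and 0.0075).

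Of the 32 tested members, these genes and GCLM, 4 in all or 12.5%, had all EGLN3 libraries above all controls, and 0 had all of them below. Among all tested genes 2.64% had all EGLN3 libraries above and 3.62% had them all below, 6.26% together.

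Of the 36 members, 28 had at least 1 promoter window in the RefSeq table used (GRCh38.p14), and the 250 bases before each annotated start were searched on both strands for TGACNNNGC, the core of the antioxidant response element. It was found for 9 of these 28 genes (32.1%), against 13.2% of all genes with a window; counted by window, it was in 10 of 43 member windows (23.3%) and in 10.9% of all 35116. The members were listed as NRF2 genes, so a higher share was likely from the choice of list and says nothing about these libraries. A match describes the letters only. NMRAL2P and TRIM16L, also called in the corrected fit, were among the 8 members without a window, so they were not searched. Shown are the windows of ME1, GCLM and GPX2. These were the searched members with a match and with groups apart or a call in the corrected fit. They were chosen after their values were seen. Each is read in the direction of the gene and ends at the base before the start, and capitals mark the match. The ME1 window is chr6:83431052-83431301, the GCLM window chr1:93909431-93909680 and the GPX2 window chr14:64942746-64942995, all on the minus strand.
ME1: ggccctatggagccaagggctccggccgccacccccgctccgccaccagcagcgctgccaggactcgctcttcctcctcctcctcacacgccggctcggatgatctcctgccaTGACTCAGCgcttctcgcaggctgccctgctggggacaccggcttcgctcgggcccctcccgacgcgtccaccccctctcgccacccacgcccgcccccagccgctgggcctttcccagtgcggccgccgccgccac
GCLM: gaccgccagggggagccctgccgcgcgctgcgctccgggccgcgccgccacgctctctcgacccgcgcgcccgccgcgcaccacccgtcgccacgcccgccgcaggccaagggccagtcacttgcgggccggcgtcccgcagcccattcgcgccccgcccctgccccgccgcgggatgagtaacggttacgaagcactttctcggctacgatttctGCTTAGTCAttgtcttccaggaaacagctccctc
GPX2: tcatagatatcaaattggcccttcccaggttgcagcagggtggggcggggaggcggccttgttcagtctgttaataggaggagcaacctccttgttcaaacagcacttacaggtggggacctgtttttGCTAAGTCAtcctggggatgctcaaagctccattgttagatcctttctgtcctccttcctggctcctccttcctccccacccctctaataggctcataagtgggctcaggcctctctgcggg
The ME1 match begins 137 bases before the start and reads TGACTCAGC in the gene's direction, an exact 9-base string that 0.456% of all windows hold. The GCLM match begins 34 bases before the start and the GPX2 match 122 bases before it, both on the opposite strand, where they read TGACTAAGC and TGACTTAGC. The deposited spans of these genes begin before the RefSeq starts, so each window overlaps the counted gene in part. The GPX2 match lies inside the deposited span, which reaches 64942905, and the GCLM match touches the edge of its own at 93909456. The other 6 genes with a match were KEAP1, TXNRD1, CBR1, CYP4F11, EPHX1 and UGT1A6. One KEAP1 window held a pair of matches, TGACACGGC and, on the opposite strand, TGACTAAGC. Each of the TXNRD1 windows held 1, reading TGACTTCGC and TGACAAAGC on their own strands. NQO1, GCLC, SRXN1 and TXN had no match in these windows.

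**Figure D2:**
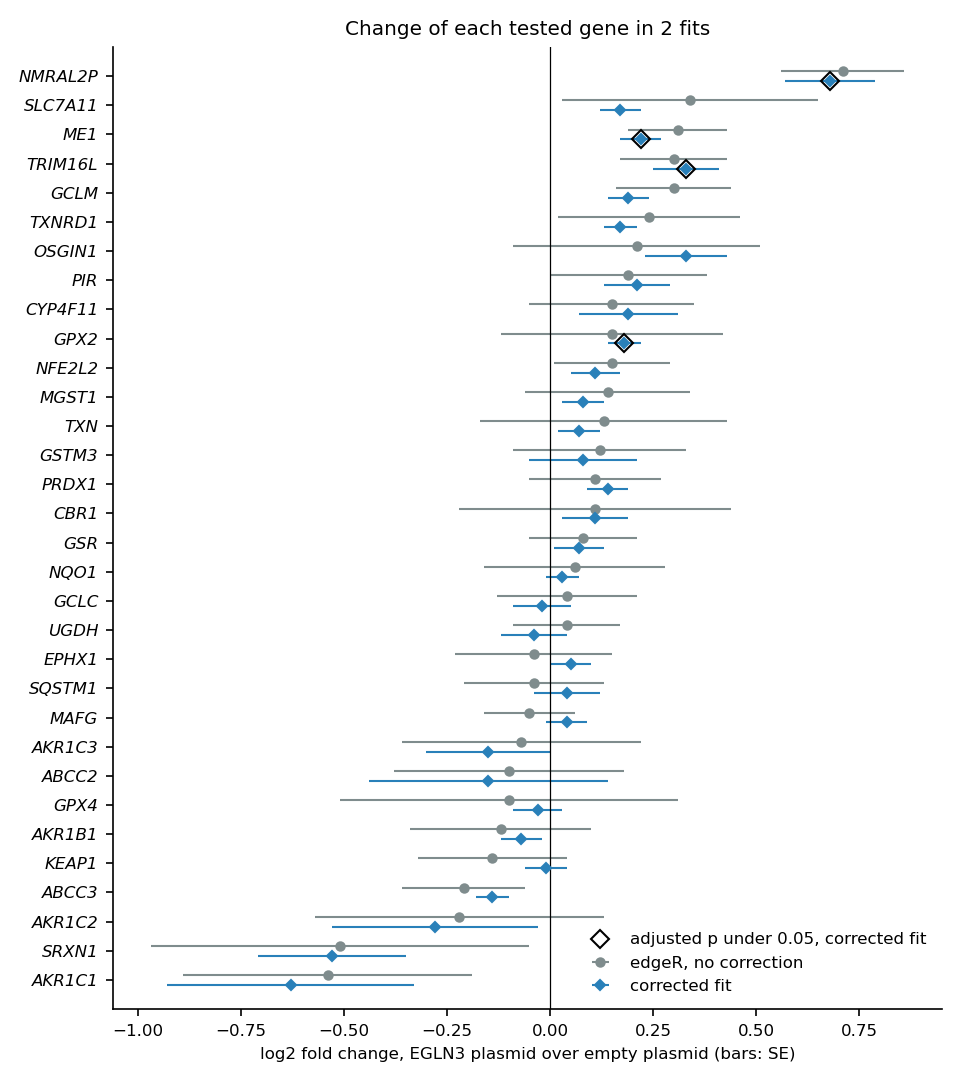
Log2 fold change, EGLN3 plasmid over empty plasmid, of the 32 tested genes in the uncorrected edgeR fit (circles) and the corrected fit (diamonds), with SE as bars. NMRAL2P lies farthest to the right at 0.71 and 0.68, AKR1C1 and SRXN1 farthest to the left, and the black outlines mark the 4 genes called in the corrected fit.

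The regulators of NRF2 did not pass in either fit. NFE2L2, which encodes NRF2, measured 67.5, 82.8 and 86.8 CPM in EGLN3 replicates 1 to 3, against 69.9, 70.5 and 72.6 CPM in control replicates 1 to 3. EGLN3 replicate 1 was below every control and the other EGLN3 libraries were above them. NFE2L2 had a log2 fold change of 0.15 (SE 0.14) in the uncorrected fit and 0.11 (SE 0.06; edgeR, adjusted p = 0.45) in the corrected fit. KEAP1 measured 162.9, 131.4 and 111.1 CPM with EGLN3, against 130.0, 161.2 and 156.0 CPM in controls. Its groups overlapped, and its log2 fold change was -0.14 (SE 0.18) uncorrected and -0.01 (SE 0.05) corrected. SQSTM1, an autophagy receptor that can pull KEAP1 away from NRF2, measured 273.7, 366.0 and 348.5 CPM with EGLN3 and 336.3, 379.6 and 301.9 CPM in controls. MAFG, a small Maf partner of NRF2, varied little, at 96.2, 100.9 and 101.6 CPM with EGLN3 and 107.6, 102.7 and 98.8 CPM in controls. Without correction SQSTM1 lay at -0.04 (SE 0.17) and MAFG at -0.05 (SE 0.11) in log2 fold change, and both lay at 0.04 in the corrected fit. NFE2L2 shares 1054 exon bases with AC019080.1 on the same strand, and SQSTM1 shares 1582 with MRNIP on the opposite strand. In all, 16 members share exon bases with another annotated gene, among them SLC7A11 and NQO1. Whether reads were counted by strand is not stated, so reads of shared bases could belong to either gene.

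Among genes of glutathione supply and use, GCLM stood apart by group and GPX2 rose in the corrected fit, and the other 4 members did not pass in it. GCLM, the modifier subunit of glutamate-cysteine ligase (ENSG00000023909, minus strand of chromosome 1, 93885205 to 93909456), measured 79.7, 88.6 and 97.9 CPM with EGLN3, against 77.0, 66.1 and 72.8 CPM in controls. All EGLN3 libraries were above all controls, by a small margin for EGLN3 replicate 1. GCLM had a log2 fold change of 0.30 (SE 0.14; edgeR, unadjusted p = 0.066) in the uncorrected fit and 0.19 (SE 0.05; adjusted p = 0.085) in the corrected fit. GCLC, the catalytic subunit of the same enzyme, measured 26.7, 33.9 and 37.2 CPM with EGLN3, against 35.5, 29.3 and 30.1 CPM in controls. Its groups overlapped, at 0.04 (SE 0.17) and -0.02 (SE 0.07) in the uncorrected and corrected fits. SLC7A11, the cystine importer, measured 72.5, 115.9 and 145.2 CPM with EGLN3, against 118.2, 71.4 and 73.8 CPM in controls. EGLN3 replicate 1 sat with control replicates 2 and 3 at the low end, and control replicate 1 sat with the other EGLN3 libraries. SLC7A11 had a log2 fold change of 0.34 (SE 0.31) in the uncorrected fit and 0.17 (SE 0.05; edgeR, adjusted p = 0.13) in the corrected fit.

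GPX2, the glutathione peroxidase of the gastrointestinal epithelium (ENSG00000176153, minus strand of chromosome 14, 64939152 to 64942905), measured 489.3, 295.8 and 268.2 CPM with EGLN3, against 254.2, 317.7 and 377.6 CPM in controls. Its groups overlapped in plain CPM, with EGLN3 replicate 1 the highest. GPX2 was at 0.15 (SE 0.27) in log2 fold change without correction and rose by 12.9% in the corrected fit (0.18 in log2, SE 0.04; edgeR, adjusted p = 0.049). Without EGLN3 replicate 1 the uncorrected value was -0.15. GPX4, which reduces lipid hydroperoxides in membranes, ran from 35.6 to 97.95 CPM with EGLN3 and from 44.7 to 79.6 CPM in controls. Its log2 fold change was -0.10 (SE 0.41), and EGLN3 replicates 1 and 3 held its highest and lowest level of the 6 libraries. GSR, which regenerates reduced glutathione, ran from 47.6 to 57.1 CPM with EGLN3 and from 48.3 to 53.0 CPM in controls, with a log2 fold change of 0.08 (SE 0.13).

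In the thioredoxin system no member passed in either fit, and the reductase and sulfiredoxin lay on opposite sides of 0. TXNRD1, thioredoxin reductase, measured 243.2, 337.5 and 386.2 CPM with EGLN3, against 322.9, 265.1 and 232.2 CPM in controls. The groups overlapped through EGLN3 replicate 1. TXNRD1 had a log2 fold change of 0.24 (SE 0.22) in the uncorrected fit and 0.17 (SE 0.04; edgeR, adjusted p = 0.059) in the corrected fit. SRXN1, the sulfiredoxin that repairs overoxidised peroxiredoxins, measured 4.49, 10.97 and 10.93 CPM with EGLN3, against 15.8, 15.3 and 6.402 CPM in controls. EGLN3 replicate 1 and control replicate 3 were the low libraries, and its log2 fold change was -0.51 (SE 0.46) in the uncorrected fit and -0.53 (SE 0.18; edgeR, adjusted p = 0.22) in the corrected fit. SRXN1 passed when control replicate 3 was left out of the corrected fit (log2 fold change -0.69; adjusted p = 0.017). Of its 2698 exon bases, 2292 are shared with AL121758.1 on the same strand, which held 0 to 3 counts per library, so how the counting treated reads of SRXN1 is uncertain. TXN, thioredoxin itself, ran from 584.6 to 1047 CPM with EGLN3 and from 489.7 to 832.2 CPM in controls (log2 fold change 0.13, SE 0.30). PRDX1, a peroxiredoxin that removes hydrogen peroxide, ran from 426.2 to 534.9 CPM with EGLN3 and from 379.9 to 471.3 CPM in controls (0.11, SE 0.16). It shares 379 exon bases with MMACHC on the opposite strand.

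NQO1, the quinone reductase most often used to report NRF2 activity, did not separate the groups. It measured 1013, 719.0 and 653.5 CPM with EGLN3, against 637.9, 798.1 and 854.8 CPM in controls. EGLN3 replicate 1 was the highest library and control replicate 1 the lowest. Its log2 fold change was 0.06 (SE 0.22) in the uncorrected fit and 0.03 (SE 0.04; edgeR, adjusted p = 0.83) in the corrected fit. CBR1, a carbonyl reductase, ran from 17.2 to 40.0 CPM with EGLN3 and from 19.6 to 29.8 CPM in controls (log2 fold change 0.11, SE 0.33). Its neighbour CBR3 held 3, 5 and 4 counts in EGLN3 replicates 1 to 3 and 0, 4 and 2 in control replicates 1 to 3, too few to test.

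The aldo-keto reductases, which reduce aldehydes and ketones, had log2 fold changes below 0 in 4 of 4 tested members, where 52.2% of all tested genes lay above 0, and none passed in either fit. The direction of AKR1B1, AKR1C2 and AKR1C3 turned in at least 1 fit that left out a library, with values up to 0.01, 0.18 and 0.10. AKR1C1, which reduces steroid ketones and lipid aldehydes, had the lowest fold change of all members. It measured 1.98, 0.948 and 1.06 CPM with EGLN3, against 2.10, 1.60 and 2.07 CPM in controls. EGLN3 replicates 2 and 3 were below every control, and EGLN3 replicate 1 was within the control range. AKR1C1 had a log2 fold change of -0.54 (SE 0.35) in the uncorrected fit and -0.63 (SE 0.30; edgeR, adjusted p = 0.35) in the corrected fit. AKR1C2, a near-identical copy, ran from 2.02 to 2.57 CPM with EGLN3 and from 1.51 to 3.52 CPM in controls (-0.22, SE 0.35), and how reads were divided between these copies is uncertain. AKR1C3, a more distant relative, ran from 4.80 to 8.24 CPM with EGLN3 and from 4.71 to 7.60 CPM in controls (-0.07, SE 0.29). AKR1B1, aldose reductase, ran from 84.5 to 133.8 CPM with EGLN3 and from 93.7 to 127.1 CPM in controls (-0.12, SE 0.22). AKR1B10, which is high in many NRF2-active tumours, held 1, 2 and 7 counts in EGLN3 replicates 1 to 3 and 5, 3 and 6 in control replicates 1 to 3.

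Conjugating enzymes and exporters did not pass in the uncorrected or corrected fit. EPHX1, microsomal epoxide hydrolase, ran from 141.6 to 203.7 CPM with EGLN3 and from 144.4 to 195.9 CPM in controls (log2 fold change -0.04, SE 0.19). MGST1, a membrane glutathione transferase, ran from 200.4 to 274.1 CPM with EGLN3 and from 168.3 to 240.3 CPM in controls (0.14, SE 0.20). GSTM3, a soluble transferase, ran from 7.30 to 11.3 CPM with EGLN3 and from 7.51 to 8.55 CPM in controls (0.12, SE 0.21). All of these overlapped, as did UGDH, which makes the UDP-glucuronate used in glucuronidation, with 22.5 to 23.6 CPM with EGLN3 and 20.9 to 24.7 CPM in controls (0.04, SE 0.13). GSTA1 had 0 counts in all 6 libraries, which allows a level of up to 0.198 CPM in EGLN3 replicate 1. UGT1A6 held 2, 10 and 9 counts with EGLN3 and 12, 4 and 4 in controls, and shares exons with the other UGT1A genes, so its counts are uncertain. ABCC3, which exports glucuronide conjugates, measured 211.9, 259.2 and 261.9 CPM with EGLN3, against 314.6, 274.5 and 258.6 CPM in controls. The groups overlapped narrowly, since control replicate 3 was within the EGLN3 range. Its log2 fold change was -0.21 (SE 0.15) in the uncorrected fit and -0.14 (SE 0.04; edgeR, adjusted p = 0.12) in the corrected fit. ABCC2, a related exporter, was at -0.10 (SE 0.28) with 1.32 to 1.69 CPM with EGLN3 and 1.38 to 2.11 CPM in controls.

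Besides NMRAL2P and TRIM16L, the members outside the groups above were OSGIN1, PIR and CYP4F11. Their log2 fold changes lay above 0 without passing. OSGIN1, an oxidative stress-induced growth inhibitor, measured 26.5, 13.5 and 13.5 CPM with EGLN3, against 13.0, 16.0 and 17.1 CPM in controls, so its mean difference came from EGLN3 replicate 1. OSGIN1 had a log2 fold change of 0.21 (SE 0.30) in the uncorrected fit, -0.17 without EGLN3 replicate 1, and 0.33 (SE 0.10; edgeR, adjusted p = 0.12) in the corrected fit. PIR, an iron-binding nuclear protein, ran from 21.9 to 32.9 CPM with EGLN3 and from 20.8 to 24.8 CPM in controls (0.19, SE 0.19). CYP4F11, a fatty acid hydroxylase, ran from 12.7 to 16.0 CPM with EGLN3 and from 10.5 to 15.7 CPM in controls (0.15, SE 0.20).

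Per unit of gene length, the members spanned a wide range of levels in these cells, here in the deposited FPKM (fragments per kilobase, scaled to depth), which were scaled between libraries. TXN was highest, at 652.4 ± 227 FPKM with EGLN3 and 592.8 ± 155 FPKM in controls (SD, n = 3 each). PRDX1 followed at 306.7 ± 38.7 FPKM with EGLN3 and 283.4 ± 33.2 FPKM in controls, NQO1 at 242.3 ± 59.8 FPKM with EGLN3 and 232.0 ± 35.1 FPKM in controls, and GPX2 at 232.3 ± 81.0 FPKM with EGLN3 and 208.8 ± 41.5 FPKM in controls. The means of NQO1 and GPX2 lay within this spread of each other in both groups. Library by library, NQO1 was above GPX2 in every control and in EGLN3 replicates 2 and 3, and below it in EGLN3 replicate 1. TXN lay above PRDX1, and GPX2 above EPHX1, the next in order, by more than the SDs. In controls 18 of 36 members had a mean over 10 FPKM and 7 had a mean below 1 FPKM. The low ones were GSTA1, UGT1A6, CBR3, AKR1B10, ABCC2, AKR1C1 and AKR1C2. AKR1C3 averaged 1.32 ± 0.430 FPKM with EGLN3 and 1.38 ± 0.325 FPKM in controls. Together the members took 0.493%, 0.465% and 0.453% of all counts in EGLN3 replicates 1 to 3, against 0.411%, 0.453% and 0.458% in control replicates 1 to 3, and the groups overlapped.

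**Figure D3:**
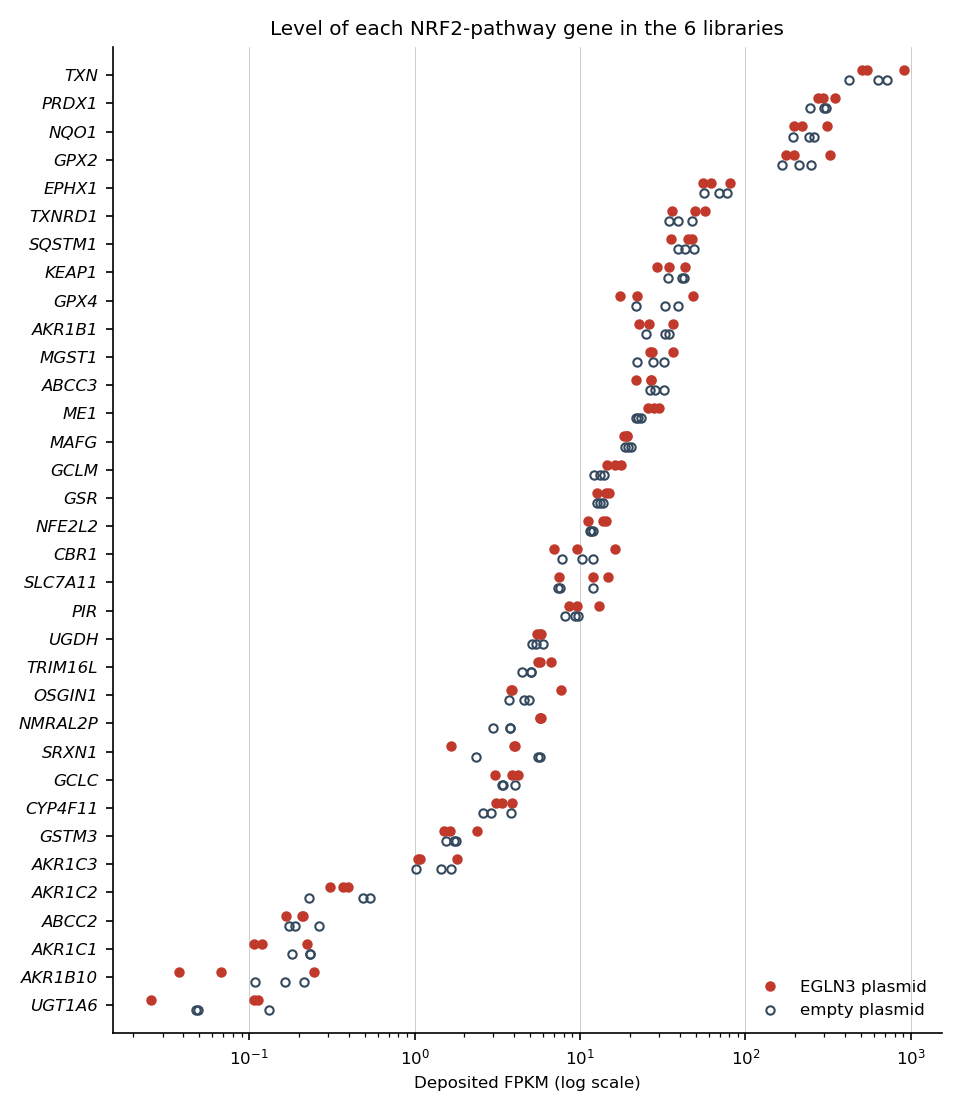
Deposited FPKM on a log axis in each EGLN3 library (filled) and empty plasmid library (open), for the members with a value above 0 in every library. Levels run from 0.0254 FPKM for UGT1A6 to 913.2 FPKM for TXN, both in EGLN3 replicate 1, and the groups interleave for most genes.

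Libraries of the same group also differed in these genes. EGLN3 replicate 1 was the highest of the 6 libraries for 15 of 32 members (46.9%, against 31.6% of all tested genes) and the lowest for 8. The difference between EGLN3 replicates 1 and 3 ran from -1.26 for SRXN1 to 1.46 for GPX4 in log2 CPM. It had the same sign as the difference between control replicates 3 and 1 for 28 of 32 members. Spearman's rho was 0.82 across members, which share these libraries. These pairs were the extremes of each group on the first component, so such agreement was likely in advance. It was not compared with all tested genes. By the EGLN3 difference, GPX4, CBR1, OSGIN1, GPX2 and TXN were at one end, at 1.46, 1.21, 0.97, 0.87 and 0.84. Within controls these genes were at 0.83, 0.61, 0.39, 0.57 and 0.77. SRXN1 and TXNRD1 were at the other end, at -1.26 and -0.67 within EGLN3 and -1.29 and -0.48 within controls, with SLC7A11 between them in both. Some members did not follow this. AKR1C2 was at 0.08 within EGLN3 and was the highest within controls, at 1.15. AKR1C1 was at 0.83 within EGLN3 and -0.02 within controls. Length moved with this difference: across the 32 members rho with gene length was -0.57, and across all tested genes -0.44. The 18 members higher in EGLN3 replicate 1 had a median length of 3560 bases and the 14 higher in EGLN3 replicate 3 one of 5700 bases. NMRAL2P differed little along it, at -0.04 within EGLN3 and -0.02 within controls. ME1 was at -0.24 within EGLN3, near the size of its corrected log2 fold change of 0.22, and at 0.04 within controls. The part of gene length in these differences was not tested apart from the corrected fit.

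**Figure D4:**
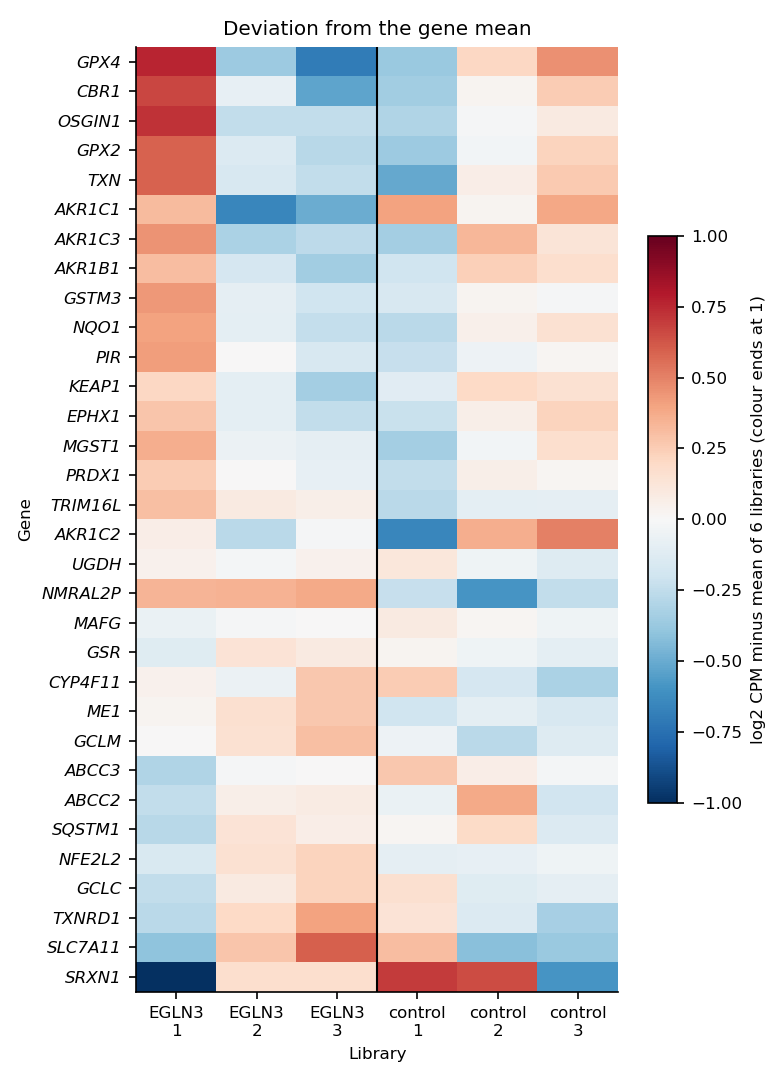
Log2 CPM of each tested gene minus its mean over the 6 libraries, EGLN3 libraries left of the line and controls right, ordered by the difference between EGLN3 replicates 1 and 3. The top 5 genes are high in EGLN3 replicate 1 and low in control replicate 1, SRXN1 at the bottom is low in EGLN3 replicate 1, and NMRAL2P has nearly the same shade in all 3 EGLN3 libraries.

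**Figure D5:**
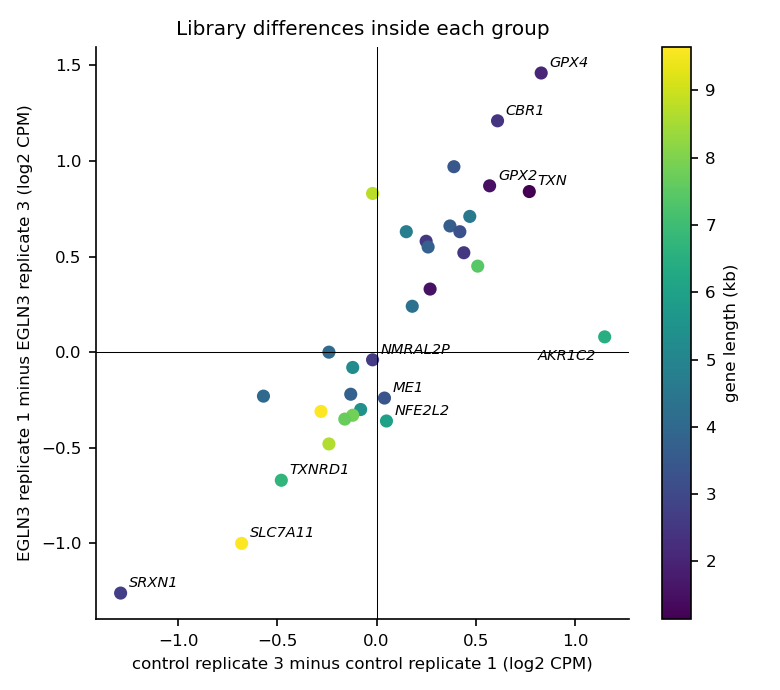
Difference between EGLN3 replicates 1 and 3 against the difference between control replicates 3 and 1, in log2 CPM, for the 32 tested genes, coloured by gene length. Most points lie in the upper right or lower left, from SRXN1 at -1.26 and -1.29 to GPX4 at 1.46 and 0.83.

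Of 90 further genes of the NRF2 and antioxidant pathways, outside the 36, 82 were tested. None passed in the uncorrected fit, and in the corrected fit 0 rose and 1 fell, against 0.318% and 0.674% of all tested genes. That gene was MAFK, another small Maf partner of NRF2, at 54.2, 63.9 and 58.0 CPM with EGLN3, against 82.5, 82.3 and 69.0 CPM in controls. All EGLN3 libraries were below all controls, with a log2 fold change of -0.41 (SE 0.14; edgeR, unadjusted p = 0.023) in the uncorrected fit and -0.26 (SE 0.06; adjusted p = 0.017) in the corrected fit. With the surrogate variable alone, the further genes called were MAFK, ABCC1, PGAM5, TXNRD2, PRDX5 and ALDH3A1, each lower with EGLN3. Their adjusted p in that edgeR fit were 0.00074, 0.013, 0.015, 0.015, 0.024 and 0.025. Of all tested genes, that fit called 1.1% higher and 3.66% lower. Of the 82, 1 had all EGLN3 libraries above all controls and 4 had them all below, against 2.64% and 3.62% of all tested genes, shares that these counts lie near. Named after their values were seen, these were NAT1 above, and MAFK, DPP3, PGAM5 and UGT1A10 below. The median log2 fold change of the 82 was 0 in the uncorrected fit and -0.02 in the corrected fit. By list, 1 of 20 NRF2 partners and regulators fell in the corrected fit. There 0 of 22 further glutathione genes, 0 of 18 further thioredoxin, peroxiredoxin and superoxide genes and 0 of 22 further conjugation, oxidation and export genes were called.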

How the data were processed

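The authors deposited unscaled counts, 1 whole number for each gene in each library, per the file headers. Their deposited FPKM come out, when checked, as these counts over the length of the gene and over a constant of the library. HISAT2 2.0.5, featureCounts 1.5.0-p3, DESeq2 1.20.0 and the build hg38 are named in the submitters' processing notes, with no role; the sources used here give neither annotation nor strand use. Spans and exon lengths of all 36 members equal GENCODE release 29 on GRCh38.

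Counts were tested in R 4.3.3 with edgeR 4.0.16 (filterByExpr, TMM, robust quasi-likelihood test, no covariate), with Benjamini-Hochberg adjustment over 15726 genes and calls at an adjusted p under 0.05. An SE is the log2 fold change divided by the square root of F. The corrected fit adds 1 surrogate variable (svaseq, sva 3.50.0) and offsets from splines with 5 degrees of freedom on GC content of the longest transcript and on gene length, leaving 3 residual degrees of freedom against 4. Log2 CPM used a prior count of 2. Alternatives were RLE scaling, other filters, DESeq2 1.42.0, limma-voom and limma 3.58.1 on log2 FPKM, the replicate number as a block, and leaving out each library. The procedures were tested on simulated data.

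Members and lists were chosen with earlier results of these data known. Full values were given for the regulators, widely used targets, members called in either fit or with groups apart, and the 4 with the largest fold changes; other members have ranges or counts. Counts of same-group libraries differed by a chi-square of 8.07 to 104 per degree of freedom, which is more than counting error alone. Each library was treated as 1 replicate, although this spread does not show that the libraries came from separate cultures. The limit for 0 counts is 3 counts per library and covers counting error only.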

Additional observations from a re-analysis of the deposited data

How the results depend on the processing

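In log2 fold change, 10 members lay above 0 and 3 below it in every alternative that gave a value, at most 23 each: NFE2L2, SLC7A11, GCLM, GSR, TXNRD1, PRDX1, ME1, PIR, NMRAL2P and TRIM16L above, and SRXN1, AKR1C1 and ABCC3 below. The number of genes called was 1 in the uncorrected fit, 0 with limma-voom (181 at an unadjusted p under 0.05), 0 with the replicate block (23), 0 on log2(FPKM + 1) with a filter (229) and 0 without a filter (531). It was 749 with 1 surrogate variable and 156 when GC and length trends were also removed. Members called higher and lower were 7 and 1 with the surrogate variable alone, against 1.1% and 3.66% of all tested genes, and 4 and 0 in the corrected fit. When each library was left out, genes called ran from 0 to 1 without correction (with 1409 genes at an unadjusted p under 0.05 when EGLN3 replicate 1 was left out) and from 49 to 219 with it, members called higher from 0 to 6 and members called lower from 0 to 1, and every such call was in the corrected fits. RLE scaling, other count filters, DESeq2 and limma on log2(FPKM + 0.1) changed no count of calls. In the corrected fit SQSTM1 and MAFG turned to 0.04, EPHX1 to 0.05, GCLC to -0.02 and UGDH to -0.04. The cause was not tested.

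Fits that left out a library, corrected or not, turned the direction of 18 members, compared with the same fit on all libraries; of these GPX2 alone passed, in the corrected fit. Their log2 fold changes ran from -0.28 to 0.02 for KEAP1, from -0.13 to 0.18 for SQSTM1, from -0.06 to 0.18 for GCLC, from -0.15 to 0.31 for GPX2, from -0.65 to 0.16 for GPX4, from -0.17 to 0.30 for TXN, from -0.14 to 0.18 for NQO1, from -0.27 to 0.35 for CBR1 and from -0.32 to 0.01 for AKR1B1. They ran from -0.57 to 0.18 for AKR1C2, from -0.35 to 0.10 for AKR1C3, from -0.19 to 0.11 for EPHX1, from -0.08 to 0.24 for GSTM3, from -0.01 to 0.26 for MGST1, from -0.18 to 0.10 for UGDH, from -0.33 to 0.12 for ABCC2, from -0.17 to 0.41 for OSGIN1 and from -0.07 to 0.35 for CYP4F11. MAFG ran from -0.08 to 0.05, and its direction turned with the correction and with no left-out library. Same-numbered libraries of the groups deviated in opposite directions (correlations of -0.79, -0.18 and -0.67 for replicates 1 to 3). The main deviation was thus not shared by number, but the first component could hide a smaller one that was. Whether same-numbered libraries were handled together is not known. The replicate block called 0 members, as without it.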
